A study of Mus musculus with 2 samples.

Results

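The TREM2 and lipid handling genes are 10 named genes: Trem2, Tyrobp, Apoe, Apoc1, Lpl, Abca1, Abcg1, Fabp5, Cd36 and Plin2. They were chosen by symbol, whatever their values, and are 10 of the 31053 genes in the count matrices of both libraries. All 10 had counts in both libraries. The libraries are leukocytes of mouse brains bearing GL261, a mouse glioma cell line, at 10 dpi (days after 100000 tumor cells were injected). WT mice were young adult C57BL/6 males with both copies of Siglec1, the gene that encodes CD169. CD169-DTR mice were males of the same background and age, heterozygous for Siglec1tm1(HBEGF)Mtka, which puts the human diphtheria toxin (DT) receptor in place of 1 Siglec1 copy. DT was given to all mice, WT included, at 40 ng/g per dose: the first dose came 1 day ahead of the tumor cells and the second 4 days later. DT is therefore shared and the receptor is what differs. For each group, live CD45.2+ cells of 3 mice were sorted as 1 pool, giving 1 WT and 1 CD169-DTR droplet library. The comparison asks how the myeloid cells differ once cells with CD169 have been depleted.

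TREM2 is a lipid-binding receptor of microglia and macrophages that has no signaling tail of its own and signals through the adaptor TYROBP (DAP12). Phagocytes take up lipid through receptors such as CD36 and from lipoproteins opened by lipoprotein lipase (LPL), carry fatty acids on binding proteins such as FABP5, and store neutral lipid in droplets coated by perilipin-2 (PLIN2). Cholesterol leaves the cell through the transporters ABCA1 and ABCG1, which the liver X receptors induce, and is loaded on apolipoproteins such as APOE and APOC1. In microglia of diseased brain, a state that depends on TREM2 carries more Apoe and Lpl and less of the resting markers.

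In GENCODE vM21 on GRCm38, Trem2 (ENSMUSG00000023992) lies on the forward strand of chromosome 17, from 48346401 to 48354147. Tyrobp (ENSMUSG00000030579) lies on chromosome 7, from 30413760 to 30417585. Apoe (ENSMUSG00000002985, chromosome 7, 19696109 to 19699188) and Apoc1 (ENSMUSG00000040564, chromosome 7, 19689481 to 19692660) are neighbors on the reverse strand, with 3448 bases between them. Lpl (ENSMUSG00000015568) lies on chromosome 8, from 68880491 to 68907448, and Abcg1 (ENSMUSG00000024030) on chromosome 17, from 31057675 to 31117988. Abca1 (ENSMUSG00000015243, 53030787 to 53159895) and Plin2 (ENSMUSG00000028494, 86648386 to 86670060) both lie on chromosome 4, far apart. Fabp5 (ENSMUSG00000027533) lies on chromosome 3, from 10012548 to 10016607, and Cd36 (ENSMUSG00000002944) on chromosome 5, from 17781690 to 17888801. These positions are whole genes, exons and introns together. Gm25447 lies within Abcg1 on the same strand, so reads there may belong to either. RefSeq's promoter table of GRCm38.p6 held 5 of the 10 members. The promoters of the receptor and of the apolipoprotein that differed in opposite directions between classes are shown, from 250 bases before to 50 after a gene start (for Apoe, the outermost of its 3 starts in the table), 5′ to 3′ on the gene's strand. Capitals mark matches to the PU.1 core GAGGAA, the nuclear receptor half-site AGGTCA, the E-box CACGTG or the TATA box TATAAA on either strand.
Trem2, chr17:48346151-48346450, forward strand: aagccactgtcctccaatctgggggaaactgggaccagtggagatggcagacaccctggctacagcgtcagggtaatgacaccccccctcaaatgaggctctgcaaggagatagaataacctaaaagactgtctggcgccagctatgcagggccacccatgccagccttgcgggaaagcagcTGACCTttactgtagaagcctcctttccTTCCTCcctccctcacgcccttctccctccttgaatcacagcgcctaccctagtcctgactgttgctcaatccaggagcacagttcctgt
Apoe, chr7:19699139-19699438, reverse strand: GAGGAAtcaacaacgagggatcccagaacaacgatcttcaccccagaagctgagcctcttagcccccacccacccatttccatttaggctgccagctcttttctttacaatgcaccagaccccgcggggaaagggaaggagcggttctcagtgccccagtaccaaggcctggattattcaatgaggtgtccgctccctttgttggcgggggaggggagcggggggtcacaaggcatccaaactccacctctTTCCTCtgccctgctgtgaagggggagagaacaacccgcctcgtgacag
The Trem2 promoter held 1 reverse half-site with its first base at -68 and 1 reverse PU.1 core at -40 from the start. The Apoe promoter held PU.1 cores at -250, forward, and at 2, reverse. Of the other Apoe starts, that at 19698621 had TATA box matches at -96 and -100 and that at 19698398 a PU.1 core at -132. A PU.1 core was found in 28.3% of all 32851 promoters of this length, a half-site in 16.3%, an E-box in 7.15% and a TATA box in 13.6%, so these matches are common and describe letters only.

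Cells were barcodes with at least 1000 UMIs (unique molecules counted) and at most 17% mitochondrial UMIs, which left 10107 cells in WT (median 7776 UMIs) and 7604 in CD169-DTR (median 8099.5). The libraries held 101808996 and 84065489 UMIs. The cells formed 28 clusters, found without the 10 genes and without the other lipid genes described here. Clusters were assigned to marker-based classes (microglia-like, macrophage-like and so on), which are called microglia, macrophages and dendritic cells (DC) for short, and each is named here by 2 of its leading genes. Each group is 1 library without a replicate, so no significance test was run and the spread between mice is unknown. Levels are UMIs per 1000000 UMIs of the class (CPM) and differences are log2 ratios of CPM. Each interval is an exact 95% interval that covers counting error only.

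Siglec1, the targeted gene, was lower in CD169-DTR cells. It was at 37.8 CPM in WT macrophages against 12.1 in CD169-DTR macrophages, and at 18.9 against 5.59 in microglia. CD169-DTR mice have 1 copy of Siglec1, so fewer cells with CD169 and less Siglec1 per cell cannot be told apart here. In microglia, 9 macrophage markers summed to 191 CPM in WT and 92.7 in CD169-DTR. The part of macrophage RNA in the microglial Siglec1 values was not tested. Microglia numbered 4733 in WT and 5379 in CD169-DTR (46.83% and 70.74% of cells), with medians of 7652 and 7868 UMIs. Macrophages numbered 2289 and 734, with medians of 7244 and 11819.5 UMIs, so the CD169-DTR macrophages were fewer and deeper. DC numbered 1134 and 241. The 8 microglial markers summed to 8439 and 9003 CPM in microglia and to 739 and 931 in macrophages, and the 9 macrophage markers to 6523 and 3979 CPM in macrophages. Free RNA, estimated from microglial marker UMIs in T and B cells, came to 183 UMIs per droplet in WT and 109 in CD169-DTR. At these amounts it would account for at most 5.96% of the UMIs of any of the 10 genes in microglia and 5.88% in macrophages of either library. The mean over T and B cells, which a few cells with many marker UMIs raise, gave 1628 and 776 UMIs instead, at which these shares would be larger. The libraries shared 21 cell barcodes.

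The 10 genes were divided between microglia and macrophages. The receptor gene Trem2, the lipase gene Lpl and the efflux transporter gene Abca1 were higher in microglia by at least 1.5-fold in both, and Apoe, Fabp5, Cd36 and Plin2 were lower. Of all 10993 genes compared, 33.9% were higher and 11.9% lower by that rule, so 3 of 10 higher is near the background. The excess of Lpl did not hold in every microglial cluster. In the P2ry12 Sox4 microglia, at 30.9 CPM in WT and 39.3 in CD169-DTR, Lpl was below each macrophage cluster of the same library. The direction of Apoe in WT rested on the Gpnmb Ms4a7 macrophages: without this cluster the log2 ratio was 0.42. It is the cluster with markers of border-associated macrophages, of which 3 of 7 were detected. It also held markers of tumor-associated macrophages and of the tumor-reactive state. Trem2 was 4.99-fold higher in WT microglia than in WT macrophages, a log2 ratio of 2.32 (2.29 to 2.35). In CD169-DTR it was 2.98-fold higher, a log2 ratio of 1.57 (1.54 to 1.60). The widest gap was that of Fabp5, which was 11-fold lower in microglia in WT and 29.2-fold lower in CD169-DTR. The median ratio of all genes was 0.37 in WT and 0.36 in CD169-DTR, and scaling to remove such a shift left Abca1 at 0.85 and 0.34. Tyrobp was nearly level, with ratios of 0.19 and 0.04 that became -0.17 and -0.32 on that scaling, and Apoc1 and Abcg1 were lower by 1.5-fold in 1 library each. The receptor gene was thus higher in microglia, its adaptor gene was near level, and Cd36, Fabp5 and Plin2 were higher in macrophages.

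**Figure D1:**
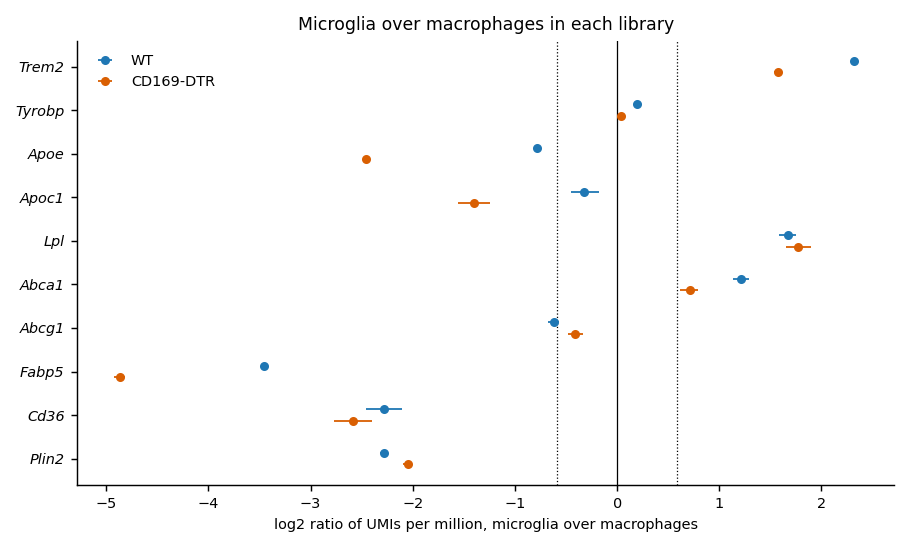
Log2 ratio of CPM in microglia over macrophages (x axis) for each of the 10 genes (y axis), with 1 point per library, lines for the exact 95% counting interval and dotted lines at 1.5-fold. Trem2, Lpl and Abca1 lie to the right of 0 in both libraries, and Fabp5 lies farthest to the left at -3.46 in WT and -4.87 in CD169-DTR.

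Trem2 was found in nearly every microglial cell. After every cell was thinned to 3000 UMIs, 99.4% of WT and 99.3% of CD169-DTR microglia had a Trem2 UMI. The share was 50.5% and 65.3% in macrophages and 16.2% and 29.4% in DC, beside 15.7% and 14.6% in T cells, which should lack the gene and whose medians were 6606 and 6655 UMIs. The WT share in DC was thus close to the background, and that in CD169-DTR DC was above it. The medians of microglia, macrophages and DC were 7244 to 14446 UMIs, and thinning sets all cells to 1 depth. Trem2 was highest in the P2ry12 Sox4 microglia, which carry resting markers, at 3959 CPM in WT and 3734 in CD169-DTR. Among the 8 microglial clusters it was lowest in the Il1a Atf3 microglia, whose leading genes are cytokine and immediate-early genes, at 2129 and 1908. Among macrophages it went from 1125 and 1415 CPM in the Gpnmb Ms4a7 cluster to 182 and 344 in the monocyte-like Hp Ear2 cluster. In both libraries each microglial cluster was above each macrophage cluster.

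Tyrobp was spread over the whole myeloid compartment. It was at 3452 CPM in WT and 3193 in CD169-DTR microglia, 3034 and 3096 in macrophages, and 1793 and 2123 in DC. Its highest level was in granulocytes, at 5070 and 5215 CPM, and NK cells, which use the same adaptor for their own receptors, had 2301 and 2594. Unlike Trem2, it was therefore high in every myeloid class.

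**Figure D2:**
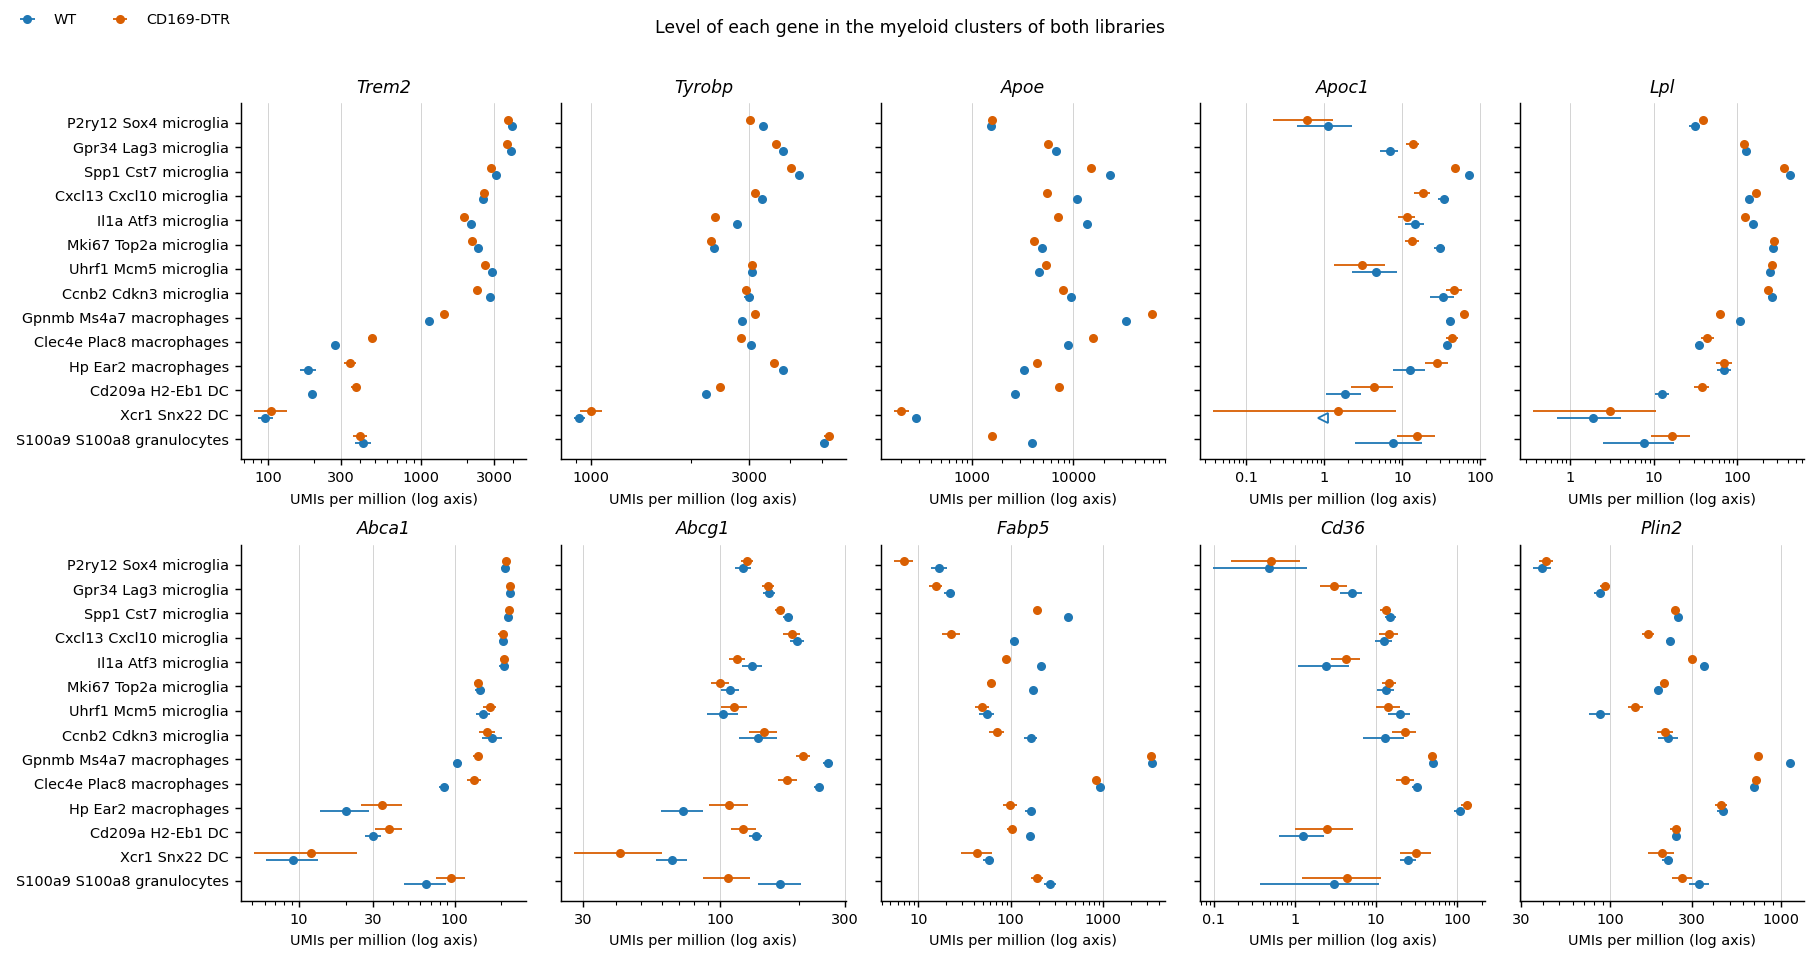
Level of each of the 10 genes (1 panel each, CPM on a log x axis) in 14 myeloid clusters (y axis) with at least 30 cells in each library, with 1 point per library and lines for the exact 95% Poisson interval. Trem2 is high in all 8 microglial clusters, Apoe and Plin2 are highest in the Gpnmb Ms4a7 macrophages, and the open triangle marks Apoc1 with 0 UMIs, drawn at the limit that 3 counts allow.

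Apoe, which carries cholesterol and other lipid, varied widely among microglial states. In WT it was at 1561 CPM in the P2ry12 Sox4 microglia, 6776 in the Gpr34 Lag3 microglia and 22854 in the Spp1 Cst7 microglia. In CD169-DTR the same clusters had 1578, 5562 and 14992 CPM. The P2ry12 Sox4 cluster was therefore lowest in both libraries and the Spp1 Cst7 cluster highest among microglia. Disease-associated markers do not set the Spp1 Cst7 cluster apart, since every microglial cluster but the P2ry12 Sox4 cluster held them. Tumor-reactive markers were held by the Spp1 Cst7 and Ccnb2 Cdkn3 microglia, and Apoe in the latter was at 9514 CPM in WT and 7889 in CD169-DTR. In macrophages Apoe reached 33201 CPM in WT and 59478 in CD169-DTR in the Gpnmb Ms4a7 cluster, against 3251 and 4418 in the Hp Ear2 cluster. After thinning, 79.3% and 80.0% of microglia had an Apoe UMI, beside 45.8% and 35.4% of T cells. Single cells spread widely: the 10th percentile, median and 90th percentile of WT microglia were 85.5, 1023 and 24148 CPM, and those of CD169-DTR microglia were 109, 982 and 14873. The medians of single microglia were thus close, and the libraries parted in the cells with the most Apoe.

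Apoc1, the neighbor of Apoe, was low and followed it across states only in part. It had 1.11 and 0.603 CPM in the P2ry12 Sox4 microglia of WT and CD169-DTR, 72.3 and 47.3 in the Spp1 Cst7 microglia, and 40.8 and 60.8 in the Gpnmb Ms4a7 macrophages. The P2ry12 Sox4 values are 7 and 6 UMIs, of which free RNA would account for 84.1% and 53.7%. In WT the Il1a Atf3 microglia had 13572 CPM of Apoe with 14.5 of Apoc1. The Mki67 Top2a microglia had 4948 with 30.2. Over 29 profiles of clusters and libraries, Apoe and Spp1 had the patterns most like that of Apoc1 (Pearson r of 0.79 each on log2 CPM). This is a description over profiles that share libraries and depth. Of thinned microglia, 2.71% and 2.36% had an Apoc1 UMI, beside 0.694% and 0.485% of T cells.

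Lpl, which frees fatty acids from lipoproteins, was higher in the Spp1 Cst7 microglia and in microglia with cycling markers than in the P2ry12 Sox4 microglia. It was at 30.9 CPM in WT and 39.3 in CD169-DTR in the P2ry12 Sox4 microglia, 430 and 360 in the Spp1 Cst7 microglia, and 269 and 275 in the Mki67 Top2a microglia, which hold mitosis markers. It is among the 10 leading genes of the Spp1 Cst7 cluster, as Fabp5 and Apoe are of the Gpnmb Ms4a7 cluster, so that these high values describe the clusters. Macrophage clusters held 34.6 to 109 CPM in WT and 44.0 to 70.0 in CD169-DTR.

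The efflux transporters differed from each other. Abca1 was even across microglia, from 146 to 226 CPM in WT and from 142 to 228 in CD169-DTR, and low in the Hp Ear2 macrophages, at 20.1 and 34.2. Abcg1 was higher in the Gpnmb Ms4a7 macrophages, at 259 and 208 CPM, and in the Clec4e Plac8 macrophages, at 239 and 181, than in microglia as a whole, at 151 and 141. It was lower than that in the Hp Ear2 macrophages, at 72.1 and 108 CPM. Among microglia the Cxcl13 Cxcl10 cluster reached 198 and 188 CPM, in CD169-DTR above the Clec4e Plac8 macrophages. Across profiles Abca1 resembled Trem2 (r of 0.94 over 29 profiles), and Abcg1 resembled Apoe (0.75).

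Fabp5 was highest in a few macrophage and DC states. It was at 3357 CPM in WT and 3309 in CD169-DTR Gpnmb Ms4a7 macrophages, at 916 and 834 in Clec4e Plac8 macrophages, and at 4346 and 1954 in the Ccr7 Zmynd15 DC, led by the gene of a chemokine receptor of migrating DC. In microglia it was at 16.7 and 6.94 CPM in the P2ry12 Sox4 cluster and at 418 and 191 in the Spp1 Cst7 cluster. Of thinned microglia, 11.2% and 5.88% had a Fabp5 UMI, beside 11.8% and 5.83% of T cells, 7.64% and 2.41% of NK cells and 2.82% and 1.80% of B cells, whose medians were 5553.5 and 6567 UMIs in NK cells and 4552 and 4125 in B cells. The microglial shares were thus not above those of T cells, the values of NK and B cells were lower with wide intervals, and no difference is read from them. In the Spp1 Cst7 microglia the shares were above those of all 3, at 27.0% and 16.1%.

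The fatty acid receptor gene Cd36 was low and was highest in the Hp Ear2 macrophages, at 107 CPM in WT and 130 in CD169-DTR. It was at 50.5 and 49.1 CPM in the Gpnmb Ms4a7 macrophages, at 25 and 31.3 in the Xcr1 Snx22 DC, and at 0.477 and 0.503 in the P2ry12 Sox4 microglia. The last 2 values are 3 and 5 UMIs, of which free RNA would account for 94.3% and 45.7%. Plin2, the droplet coat gene, was at 1130 and 738 CPM in the Gpnmb Ms4a7 macrophages and at 39.8 and 41.9 in the P2ry12 Sox4 microglia. Its highest microglial level was in the Il1a Atf3 cluster, at 353 and 299. Cd36 and Plin2 were thus both higher in macrophages but peaked in different clusters.

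**Figure D3:**
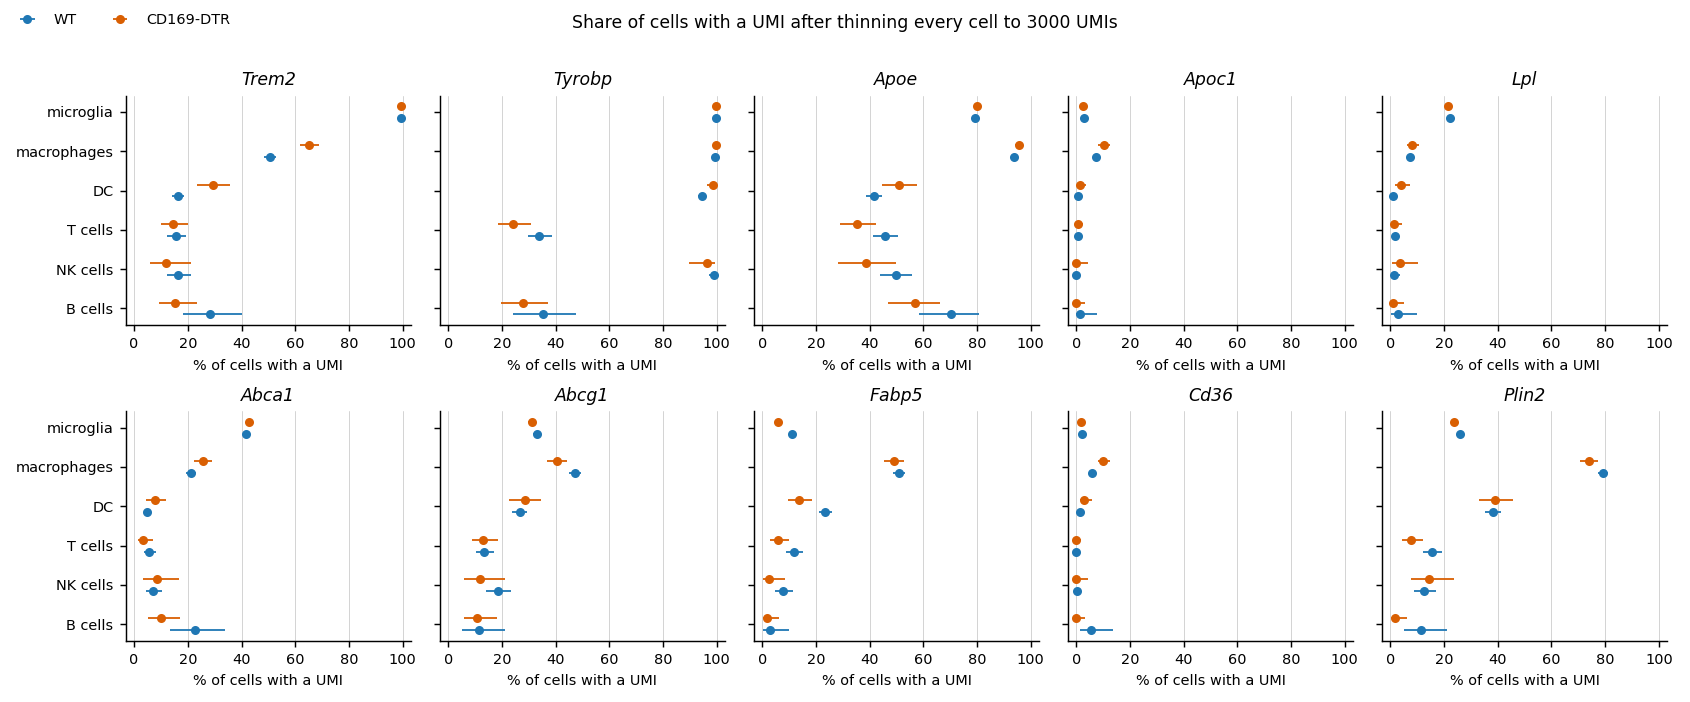
Percent of cells with a UMI of each gene (x axis, 1 panel per gene) after thinning to 3000 UMIs, in microglia, macrophages, DC, T, NK and B cells (y axis) of each library, with exact 95% Clopper-Pearson intervals. T, NK and B cells serve as the background: Trem2 stands far above it in microglia, at 99.4% in WT. The Fabp5 share of WT microglia, at 11.2%, lies beside the 11.8% of T cells. No difference is read from the 2.82% of B cells, whose interval is wide (0.343% to 9.81%).

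In microglia, Apoe, Apoc1 and Fabp5 were higher in WT than in CD169-DTR by at least 1.5-fold and none of the 10 was lower by that much, where 1.69% of 11620 genes were higher and 1.29% lower. The median log2 ratio of the 10 genes was 0.12, beside -0.04 for all genes. Fabp5 was at 171 CPM in WT and 72.7 in CD169-DTR, a 2.35-fold difference and a log2 ratio of 1.24 (1.18 to 1.29). Apoe was at 10815 and 7027 CPM, a log2 ratio of 0.62 (0.62 to 0.63), and Apoc1 at 29.7 and 19.4, a ratio of 0.61 (0.49 to 0.73). The Apoc1 ratio was near the 1.5-fold limit and was 0.54 without the cell with most Apoc1 UMIs and 0.50 without marked doublets. The receptor complex was close to level, with 3115 and 2926 CPM of Trem2 (0.09, 0.08 to 0.10) and 3452 and 3193 of Tyrobp (0.11). Abca1 was at 204 CPM in both libraries (-0.00, -0.04 to 0.04). The remaining ratios were 0.16 for Lpl, 0.13 for Cd36 (-0.06 to 0.33), 0.10 for Abcg1 and 0.08 for Plin2.

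RNA of other cells moved with these differences. The summed level of 9 macrophage markers in microglia was 191 CPM in WT and 92.7 in CD169-DTR, with none of the 9 at 0 in either library. In T cells, Apoe was at 1182 CPM in WT and 286 in CD169-DTR, and Fabp5 at 236 and 26.8. Without cells marked as doublets the T cell values were 191 and 156 CPM for Apoe and 73.2 and 29.1 for Fabp5. Microglia without a UMI of any macrophage marker in their full counts numbered 2335 in WT and 3735 in CD169-DTR, and this choice depends on depth. In them the log2 ratio was 0.66 for Fabp5 and 0.35 for Apoe. With free RNA subtracted at its mean amount it was 0.71 for Fabp5 and 0.74 for Apoe. The Fabp5 ratio was thus smaller in both settings, while that of Apoe was under 1.5-fold in the cells without macrophage-marker UMIs and larger with the subtraction. The part of macrophage RNA in them was not tested.

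In macrophages, Trem2 and Apoe were lower in WT than in CD169-DTR by at least 1.5-fold and none of the 10 was higher by that much, where 4.25% of 9355 genes were lower and 5.84% higher. The median log2 ratio of the 10 was -0.17, beside -0.05 for all genes. Apoe was at 18635 CPM in WT and 38662 in CD169-DTR, a log2 ratio of -1.05 (-1.06 to -1.05). It is among the genes the study picked from these libraries, so its direction is no independent evidence. Trem2 was at 624 and 983 CPM, a ratio of -0.66 (-0.70 to -0.62), which was -0.93 without marked doublets and -1.28 with free RNA subtracted at its mean amount. Abca1 (88.0 and 125 CPM, -0.50) and Apoc1 (36.9 and 51.2, -0.47) were lower too, while Abcg1 (233 and 187, 0.32), Plin2 (858 and 691, 0.31) and Lpl (68.8 and 57.3, 0.26) were higher. Tyrobp was at 3034 and 3096 CPM (-0.03). The smaller ratios depended on the cells taken: among macrophages of 5000 to 10000 UMIs, Lpl was at -0.57 and Apoc1 at 0.60, and without UMIs of microglial markers Plin2 was at -0.08.

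**Figure D4:**
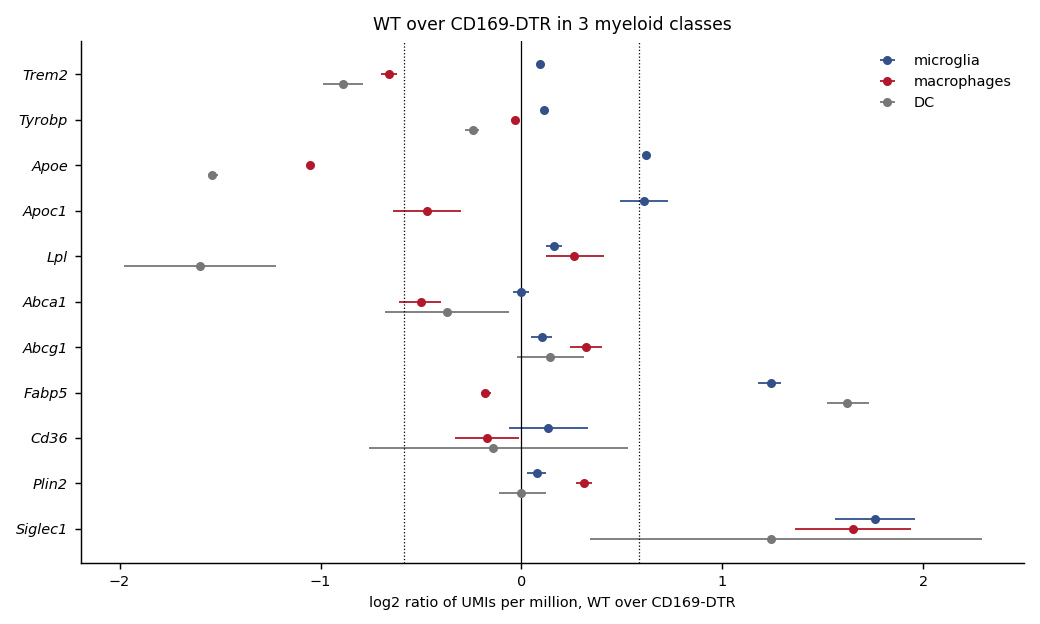
Log2 ratio of CPM in WT over CD169-DTR (x axis) for each of the 10 genes and Siglec1 (y axis) in microglia, macrophages and DC, with exact 95% counting intervals and dotted lines at 1.5-fold. Apoe is at 0.62 in microglia and -1.05 in macrophages, on opposite sides of 0, and Apoc1 in DC, with too few UMIs, is not drawn.

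The depth and the make-up of the macrophage class also differed between the libraries. The Gpnmb Ms4a7 macrophages had a median of 4765 UMIs in WT (1112 cells) and 16283 in CD169-DTR (330 cells), and it is the only macrophage cluster with at least 3 detected markers of border-associated macrophages. The summed level of 7 such markers in macrophages was 208 CPM in WT and 291 in CD169-DTR. The microglial markers in them, given above, were also higher in CD169-DTR. Among macrophages of 5000 to 10000 UMIs the Apoe ratio was -0.35 and the Trem2 ratio -0.47, and with libraries merged without integration they were -0.38 and -0.42. Without the cluster with border-associated markers the Apoe ratio was -0.61. In macrophages without a UMI of microglial markers (941 WT and 163 CD169-DTR cells) the Apoe ratio was -0.14. These cells were chosen by full counts, so the choice also depends on depth, which differed between the libraries. Apoe was lower in WT in each of these, by at least 1.5-fold only in the ratio without the cluster with border-associated markers, and the part of depth or cell mix in it was not tested.

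Within single clusters the directions of the receptor and apolipoprotein genes in macrophages were the same as in the class. Apoe was lower in WT in 3 of 3 macrophage clusters, with log2 ratios from -0.84 to -0.44, and so were Trem2 (-0.92 to -0.33), Abca1 (-0.77 to -0.43) and Apoc1 (-1.16 to -0.21). Fabp5 was different: the ratio over all macrophages was -0.18 (-0.20 to -0.15), but in its 3 clusters it was 0.02, 0.14 and 0.73, so the class value has the opposite sign to its clusters. In the Gpnmb Ms4a7 macrophages, whose depth differed most between libraries, Lpl was at 0.82 (0.63 to 1.00) and Plin2 at 0.61 (0.56 to 0.67). In the Clec4e Plac8 macrophages they were at -0.34 (-0.64 to -0.04) and -0.03 (-0.10 to 0.04). Per cell of the Gpnmb Ms4a7 cluster the 90th percentile of Lpl was lower in WT, at 109 CPM against 170.

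In microglia, the Fabp5 ratio had an interval above 0 in 7 of 8 clusters, up to 2.25 in the interferon-rich Cxcl13 Cxcl10 cluster, and was 0.18 (-0.19 to 0.55) in the Uhrf1 Mcm5 cluster. In the P2ry12 Sox4 cluster, free RNA would give 109 Fabp5 UMIs in WT, where 105 were counted, and 41.1 in CD169-DTR, where 69 were counted. In the Gpr34 Lag3 cluster it would account for 55.9% and 18.7% of the Fabp5 UMIs. Both clusters are among the 7, but no direction of Fabp5 is read in them. In the Cxcl13 Cxcl10 cluster free RNA would account for 8.87% of the Fabp5 UMIs in WT and 11% in CD169-DTR. These shares would be larger at the mean amounts of free RNA. Apoe was higher in 6 of 8, from -0.24 to 0.97. Its 3 highest ratios were 0.97 in the Cxcl13 Cxcl10, 0.93 in the Il1a Atf3 and 0.61 in the Spp1 Cst7 microglia, while in the P2ry12 Sox4 microglia it was -0.02 (-0.05 to 0.02). Free RNA would account for 16.5% of the Apoe UMIs of this cluster in WT and 9.69% in CD169-DTR, so no direction of Apoe is read there. In the Gpr34 Lag3 microglia, where all 8 microglial markers were detected too, the Apoe ratio was 0.28 (0.27 to 0.30).

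**Figure D5:**
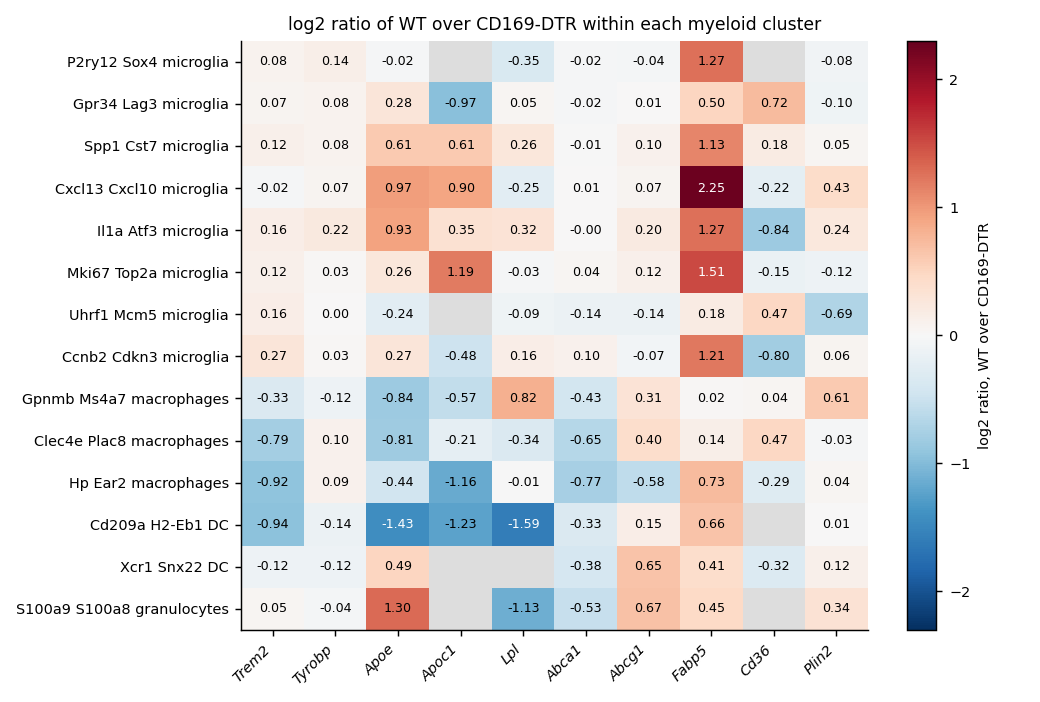
Log2 ratio of CPM in WT over CD169-DTR (color and number) of each of the 10 genes (columns) in 14 myeloid clusters (rows), with gray where a gene had under 20 UMIs. Fabp5 is at 2.25 in the Cxcl13 Cxcl10 and 0.18 in the Uhrf1 Mcm5 microglia, and Apoe, Trem2, Abca1 and Apoc1 are below 0 in all 3 macrophage clusters.

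DC were few in CD169-DTR, and their clusters were unevenly held: the Ccr7 Zmynd15 DC had 148 WT and 14 CD169-DTR cells. Of the 9 genes with enough UMIs, Fabp5 was higher and Trem2, Apoe and Lpl were lower in WT by at least 1.5-fold, where 5.84% of genes were higher and 5.56% lower. Apoe was at 1891 CPM in WT and 5482 in CD169-DTR (-1.54, -1.56 to -1.51), and Trem2 at 172 and 319 (-0.89, -0.99 to -0.79). Apoe was at -1.43 in the Cd209a H2-Eb1 DC but at 0.49 (0.23 to 0.76) in the Xcr1 Snx22 and 1.84 (1.44 to 2.26) in the Ccr7 Zmynd15 DC, and Trem2 was at -0.94, -0.12 (-0.50 to 0.27) and -0.53 (-0.91 to -0.12). Single DC had a median of 146 CPM of Apoe in WT and 164 in CD169-DTR, and 90th percentiles of 3556 and 22307, so the libraries parted in the DC with the most Apoe. The 8 microglial markers summed to 457 and 665 CPM in DC and the 7 markers of border-associated macrophages to 36.7 and 77.8, higher in CD169-DTR like Trem2 and Apoe, and their part was not tested. Without marked doublets the Trem2 ratio was -2.14. In WT, free RNA would account for 14.6% of the Trem2 UMIs and 13% of the Lpl UMIs of DC. Fabp5 was at 637 and 207 CPM over all DC (1.62, 1.52 to 1.73), and at 162 and 102 in the Cd209a H2-Eb1 DC, the cluster with the most cells in both libraries. Its ratio was 0.66 (0.48 to 0.85) in that cluster, 0.41 (-0.16 to 1.03) in the Xcr1 Snx22 and 1.15 (1.02 to 1.29) in the Ccr7 Zmynd15 DC. With the same weight for every cluster in both libraries the DC ratio of Fabp5 was 1.04. The part of the cluster mix in the class value was not tested. When clusters were found without integration, the DC ratio was -0.06 for Apoe and -0.31 for Trem2.

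WT macrophages that carried a Siglec1 UMI had more Trem2 than those that did not. Cells were split by their full counts, where the medians were 7473 UMIs with and 7162.5 without a Siglec1 UMI. Only the levels were taken after thinning to 3000 UMIs, so the split itself still depends on depth. The 484 thinned macrophages with a Siglec1 UMI in their full counts had 677 CPM of Trem2 and the 1492 without had 473. That is a log2 ratio of 0.52 (0.41 to 0.63). Apoe was at 22010 and 17345 CPM (0.34, 0.32 to 0.36), and Fabp5 at 2136 and 1868 (0.19, 0.13 to 0.25). Cd36 went the other way, at 23.4 and 43.3 CPM (-0.89, -1.46 to -0.36). Plin2 (0.12) and Tyrobp (-0.09) were near level, and the intervals of the remaining genes held 0 at this depth. Without thinning their intervals did not hold 0, with Apoc1 at 0.53, Abca1 at 0.17 and Abcg1 at 0.12. Lpl was then at -0.35 (-0.55 to -0.15), against 0.18 at 3000 UMIs, so its sign depends on the setting. In the Hp Ear2 macrophages, where Cd36 was highest, 2.46% of WT cells had a Siglec1 UMI, against 27.4% in the Gpnmb Ms4a7 and 22.7% in the Clec4e Plac8 macrophages. Over the Gpnmb Ms4a7, Clec4e Plac8 and Hp Ear2 clusters of WT, Trem2 was at 1125, 274 and 182 CPM. Apoe was at 33201, 8901 and 3251 CPM in them. The part of the cluster mix in these ratios was not tested. In CD169-DTR, where 95 of the 734 macrophages had a Siglec1 UMI, the Trem2 ratio was 0.42 (0.22 to 0.60). Medians in that library were 16167 UMIs with and 11381 without a Siglec1 UMI. A cell without a Siglec1 UMI may still express the gene, since its level is low.

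The wider pathway was described by 97 other genes of TREM2 signaling, lipoproteins, cholesterol, lipid uptake, lysosomal lipid breakdown and droplets, of which 88 had enough UMIs in macrophages. Of these, 1 was higher in WT (Apod, a lipid-carrying apolipoprotein) and 6 were lower (Apoc2, Apoc4, Asah1, Cd33, Ctsd and Hcst), where 5.84% of all genes were higher and 4.25% lower, and nothing is read from these counts. Their median was -0.10, beside -0.05 for all genes. Hcst, Asah1 and Ctsd are named for being past 1.5-fold and not by their rank. Apod was at 7.30 CPM in WT and 1.94 in CD169-DTR (1.91, 1.21 to 2.68). Apoc4 and Apoc2, neighbors of Apoe in the same gene cluster, had ratios of -0.89 (-1.37 to -0.42) and -0.69 (-1.21 to -0.17). Below Apod, the highest ratios were those of Fabp3 (0.50, 0.30 to 0.70) and Ms4a6d (0.49, 0.45 to 0.53), under 1.5-fold. Hcst (DAP10), an adaptor related to Tyrobp, was at 39.6 and 59.7 CPM (-0.59), and Cd33, an inhibitory receptor of myeloid cells, at 45.9 and 73.2 (-0.67). The 16 genes of cholesterol synthesis and the 13 of efflux and liver X receptors held 0 genes past 1.5-fold, with medians of 0.02 and 0.06.

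In microglia 83 of the 97 had enough UMIs, 2 were higher in WT (Pltp and Fabp3) and 2 lower (G0s2 and Olr1), near the 1.69% and 1.29% of all genes. Their median was -0.08, beside -0.04 for all genes. Pltp, which moves phospholipid between lipoproteins, was at 10.2 CPM in WT and 5.88 in CD169-DTR (0.79, 0.58 to 1.01). Fabp3, another fatty acid binding protein gene, was at 29.4 and 19.2 (0.61, 0.49 to 0.73). G0s2, an inhibitor of droplet lipolysis, was at 1.96 and 3.82 (-0.97, -1.35 to -0.59), and Olr1, a receptor of oxidized lipoprotein, at 1.33 and 2.07 (-0.64). The next ratios in each direction were 0.41 for Axl, a receptor of dying cells, and -0.41 for Dgat2 (-0.87 to 0.05), an enzyme of triglyceride synthesis. G0s2 is also among the leading genes of granulocytes, and 6 granulocyte markers summed to 196 CPM in WT and 396 in CD169-DTR microglia, whose part in it was not tested.

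The genes whose level across the 29 profiles was most like each member's were named by the highest Pearson r on log2(CPM + 10) among 8827 genes, as a description over profiles that share libraries. For Trem2 they were Itga6, C1qc and Tspan4 (0.99 each), and for Abca1 they were Ctsd (0.96), Itgb5 and Lhfpl2. Lpl was most like Lrpap1 (0.92), Fabp5 most like Gpx4 (0.88), Tyrobp most like Fyb (0.85), Cd36 most like Ethe1 (0.84) and Plin2 most like Aprt and Ftl1 (0.84 each). For Apoe they were Clcn7, Rai14 and Fmn1 (0.84 each), and Abcg1 was also most like Clcn7 (0.77). Among pairs of the 10, Trem2 and Fabp5 had the lowest r, at -0.42.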

How the data were processed

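The data are the count matrices of 1 WT and 1 CD169-DTR droplet library of sorted CD45.2+ cells, each from 3 pooled mice. With Cell Ranger 3.1.0 (per the file headers) and mm10, the authors counted UMIs for each gene in every barcode, and deposited these raw counts unnormalized. Here, a barcode was kept from 1000 UMIs up if mitochondrial genes had 17% of its UMIs or less. Cells were integrated on 50 dimensions from 2000 variable features, without the genes described, and clustered on 30 dimensions at resolution 1 with Seurat 5.3.0 in R 4.3.3. Doublets were marked with Scrublet in scanpy 1.11.5 and left out as an alternative only. A class name needed 3 detected markers.

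UMIs were summed per class and library and compared as log2 ratios of CPM for genes with at least 100 UMIs over both libraries and at least 1 in each. Intervals at 95% are exact Poisson for levels, exact Clopper-Pearson for shares and exact conditional for ratios, and cover counting error only. There being 1 library per group, no significance test was run. Ratios past 1.5-fold were counted. The amount of free RNA was taken from the share of T and B cells without a microglial marker UMI, an estimator chosen after seeing that few cells drove the mean. The calculation of ratios and intervals was checked on simulated counts. Genes named from the 97 pathway genes are the 3 highest and 3 lowest ratios per class, and the likeness rule names the 3 genes most like each member. The members, lists and comparisons were chosen with earlier results of these data known. The 16 alternatives planned concern cells, clusters, scaling, depth and free RNA, and 2 were added after seeing the data.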

Additional observations from a re-analysis of the deposited data

Results flagged for a closer look

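Apoe was picked out because its difference between WT and CD169-DTR ran in opposite directions in microglia and macrophages, past 1.5-fold in both. As log2 ratios, WT against CD169-DTR, the values were 0.62 in microglia and -1.05 in macrophages. In cells without a UMI of markers of the other class they were 0.35 and -0.14, both under 1.5-fold. That choice of cells by full counts also depends on depth. With 1 library per group the difference between the 2 ratios was not tested.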

How the results depend on the processing

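No paired analysis was possible because each group has 1 library, and for the same reason no replicate could be left out. In microglia, 0 of the 10 genes were lower in WT by 1.5-fold under all 18 alternatives, and 48 of 54 values of the 3 higher genes still passed it. The number of higher genes was 1 (Fabp5) with the same weight for every cluster in both libraries. In macrophages, 29 of 36 values of Trem2 and Apoe still passed 1.5-fold. With the same weight for every cluster the number of lower genes was 1 (Apoe). Among cells of 5000 to 10000 UMIs it was 1 (Cd36), with 1 higher (Apoc1). With libraries merged without integration it was 0, with 1 higher (Fabp5). In cells without a UMI of markers of the other class, 1 gene was higher (Abcg1). Between microglia and macrophages in WT, 139 of 144 values still passed and 1 turned: Apoe, at 0.42 without the cluster with border-associated macrophage markers. With a minimum of 20 UMIs, the pathway genes past 1.5-fold were 2 in place of 1 higher in macrophages and 5 in place of 2 lower in microglia. The alternatives with cells lacking markers of the other class and with free RNA at its mean amount were chosen after seeing the data. Where no value above shows it, the cause was not tested. With 1 library per group, the intervals show how far counting limits a ratio and say nothing of mice, and genes with few UMIs, such as Apoc1 and Cd36, had the widest intervals.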
